A study of Arabidopsis thaliana with 18 samples.

Results

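Young Arabidopsis thaliana seedlings of the Col-0 accession treated with DPAM-1 were set against seedlings treated with coronatine, in the absence of salt. DPAM-1 is a synthetic compound that the labels give by its code name only, and coronatine is a toxin of Pseudomonas syringae. Both were applied at 5 µM, so the comparison is at the same dose and the same time. Its members are the 3 DPAM-1 libraries and the 3 coronatine libraries without NaCl, chosen by their labels, which are 6 of the 18 libraries of the series, and all 14229 genes of the deposited count table were compared. The 3 libraries of seedlings in 1% (v/v) DMSO without NaCl serve as a baseline, and the 3 DPAM-1 and 3 coronatine libraries that also received 100 mM NaCl serve as a second comparison of the compounds that shares no library with the first. All seedlings were wild-type Col-0 in liquid MS medium, and the compounds were added 4 days after germination; in the NaCl groups salt followed 16 h later and the seedlings were taken 2 h after that. The labels of the groups without NaCl name no mock addition and no harvest time of their own, and for DPAM-1 and coronatine no solvent is given, so in comparisons with DMSO the compound and its carrier cannot be told apart. Libraries are numbered, but no label says that they came from separate cultures, so p-values measure the spread between these libraries, which may be technical.

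Jasmonate is a fatty acid-derived hormone of wounding and defence. Its active form, jasmonoyl-isoleucine, binds the F-box protein COI1 together with a JAZ repressor; the repressor is then degraded and transcription factors led by MYC2 are freed. Coronatine mimics jasmonoyl-isoleucine at that receptor, and JAZ genes, biosynthesis genes and catabolism genes are all known targets of the pathway. Brassinosteroids, by contrast, are growth hormones that act through BRI1 and BES1 on wall-loosening enzymes, and the title of the study speaks of brassinosteroid-related genes and of salt sensitivity.

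DPAM-1 seedlings differed from coronatine seedlings in 4961 of 14229 genes, 34.9% of those tested, at an adjusted p under 0.05 by the quasi-likelihood test of edgeR after Benjamini-Hochberg adjustment. Higher after DPAM-1 were 2475 genes (17.4%) and lower were 2486 (17.5%). The list counts below are to be read against these shares. The large differences lay mostly on the lower side: 499 of the called genes were higher and 840 lower by at least 1 on the log2 scale, and 15 were higher and 144 lower by at least 3. The split by direction rests on the scaling, since with library totals alone 76.7% of the called genes were higher, against 49.9% with TMM factors, and the median log2 fold change of all genes was 0.19 instead of −0.01. Changes are given relative to the TMM baseline. Higher, lower, rose and fell compare DPAM-1 with coronatine unless another comparison is named. For 4750 of the called genes the DPAM-1 and coronatine libraries did not overlap in CPM, the read count of a gene scaled by TMM to a library of fixed size; over all genes, 44.4% did not overlap. For orientation, DPAM-1 differed from DMSO in 145 genes (1.02%) and coronatine from DMSO in 4947 (34.8%); these comparisons share libraries with each other and with the one described here, so their values are only set side by side. The tissue markers set the frame: RBCS1A, RCA, LHCB1.3 and LHCA1 together held 32725 to 36514 CPM in DPAM-1 libraries, 36176 to 37452 CPM in coronatine libraries and 29816 to 36918 CPM in DMSO libraries.

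Libraries held 13638981 to 25194993 reads in the DPAM-1 group, 15011305 to 31460853 in the coronatine group and 17266389 to 19908297 in the DMSO group, and gene length was not considered, so levels are compared between libraries and never between genes. DPAM-1 library 2 stood apart from the other DPAM-1 libraries in jasmonate genes: of the 55 measured genes of the 5 jasmonate lists below, 45 were highest in library 2, against 34.8% of all genes, with a median of 0.52 log2 above the mean of the other DPAM-1 libraries. Coronatine library 3 stood apart from the other coronatine libraries on principal components 2 and 3 of all 18 libraries. Leaving out DPAM-1 library 2 left 4491 genes called, and leaving out coronatine library 3 left 4681.

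Markers of several cell types differed. Of the whole root hair list 7 of 11 genes were lower and 0 higher, against 17.5% and 17.4% of all genes; by library totals 4 were lower and 1 higher. The 5 root hair markers EXPA7, EXPA18, PRP3, COBL9 and LRX1 summed to 85.3 to 102 CPM in DPAM-1 libraries, against 155 to 180.3 CPM in coronatine libraries and 110 to 124 CPM in DMSO libraries, and 4 of the 5 were lower, EXPA7 no longer so without coronatine library 2 (adjusted p = 0.0766). Of the endodermis markers, CASP1, which scaffolds the Casparian strip, had 41.4, 42.0 and 41.3 CPM after DPAM-1, against 21.7, 19.9 and 18.8 CPM after coronatine, higher by 1.04 ± 0.15 (adjusted p = 4.84e-06). ESB1, needed for the strip, was 0.80 higher. Of 8 measured genes of the endodermis list, 0 were called in DPAM-1 against DMSO (1.02% of all genes). In coronatine against DMSO 5 were lower (17.4% of all genes). The phloem markers SUC2, APL, PP2-A1 and AHA3 summed to 127 to 136 CPM in DPAM-1 libraries, against 152 to 175 CPM in coronatine libraries, with 2 of the 4 lower, or 1 by library totals and without DPAM-1 library 3. The xylem markers XCP1, IRX3 and CESA8 summed to 27.7 to 31.9 CPM in DPAM-1 libraries, against 32.4 to 46.0 CPM in coronatine libraries; XCP1 was lower, a call lost without coronatine library 3 or DPAM-1 library 1, with upper-quartile factors and by library totals, and the other 2 did not pass. Guard cell genes went both ways: of 5 measured, FAMA and OST1 fell by 0.67 and 0.49, AT1G22690 was 0.75 higher and 2 did not pass, and the OST1 call was lost by library totals and without coronatine library 1 or DPAM-1 library 2. The deposited counts hold only genes with at least 30 reads in every library, so no marker among them could be at 0. CASP4, CASP5, SLAC1, KAT1, CESA4, VND7 and the 6 seed markers were not among them, and their levels are not known. The part of these cell types in the differences described below was not tested.

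The jasmonate genes were lower in DPAM-1 seedlings than in coronatine seedlings as a block, from repressors to outputs. Of the 55 measured genes in the 5 lists, 47 were lower, 1 was higher and 7 did not pass, and in 25 the difference was at least 3 on the log2 scale; 17.5% of all genes were called lower. Without DPAM-1 library 2 the list counts were the same, and the medians of the repressor, biosynthesis, catabolism and output lists were −2.94, −2.09, −3.76 and −4.73, against −2.71, −1.96, −3.41 and −4.30 with it. Against DMSO, in comparisons that share these libraries, DPAM-1 had 0 called genes in these 5 lists, near the 1.02% of all genes. There the medians were 0.24 (repressors), −0.07 (transcription factors), 0.25 (biosynthesis), 0.37 (catabolism) and 0.35 (outputs), against −4e-04 for all genes. After coronatine, 9 of 12 receptor and repressor genes and 4 of 6 transcription factors were higher than in DMSO (17.4% of all genes). So were 13 of 17 biosynthesis genes, with 1 lower, and all 8 catabolism and 12 output genes. Fewer cells of a type and less RNA per cell cannot be told apart in such whole-seedling samples.

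Among 12 measured genes of the receptor complex and its repressors, 9 were lower, 0 higher and 3 did not pass, with a list median of −2.71 against −0.01 for all genes. JAZ10, a repressor strongly induced by the pathway that it limits, had 27.2, 54.9 and 28.9 CPM in DPAM-1 libraries 1 to 3, against 809, 756 and 709.9 CPM in coronatine libraries 1 to 3 and 30.3, 26.7 and 33.0 CPM in DMSO libraries. Every DPAM-1 library was far below every coronatine library, library 2 was the highest of its group, and the DPAM-1 and DMSO values interleaved. The JAZ10 log2 fold change was −4.35 ± 0.19 (SE, n = 3 each, adjusted p = 4.65e-15). Against DMSO, JAZ10 stood at 0.31 after DPAM-1, with a 95% interval of −0.06 to 0.67. Between the compounds, JAZ1, JAZ2, JAZ3, JAZ5, JAZ6 and JAZ9 fell by 2.57 to 3.85 on the log2 scale, while JAZ12 fell by 1.03 and NINJA, the adaptor that ties JAZ proteins to the corepressor TPL, fell by 1.41. The receptor gene itself did not pass: COI1 had 9.39, 11.1 and 11.8 CPM after DPAM-1, against 12.8, 12.4 and 14.2 CPM after coronatine. The groups did not overlap, yet the difference was −0.27 with a 95% interval of −0.56 to 0.02. Intervals are for single genes and not adjusted for the number tested, so that of a gene that did not pass can leave out 0. JAZ4, JAZ7, JAZ8 and JAZ13 were not analysed here. TPL and JAZ11 also did not pass, at −0.03 (−0.33 to 0.28) and −0.13 (−0.45 to 0.18).

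The transcription factors were lower in 4 of 6 cases. MYC2, the leading activator of the response, stood at 13.8, 22.3 and 19.5 CPM in DPAM-1 libraries, against 193, 165 and 214 CPM in coronatine libraries. The ranges of the compounds were far apart. MYC2 fell by 3.35 ± 0.15 (SE, adjusted p = 6.05e-15), its repressive relatives JAM1 and JAM2 by 3.03 and 1.16, and MYC4 by 0.83. JAM3 (−0.22, interval −0.49 to 0.04) and MED25, the Mediator subunit that MYC2 contacts (−0.35, −0.76 to 0.06), did not pass.

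**Figure D1:**
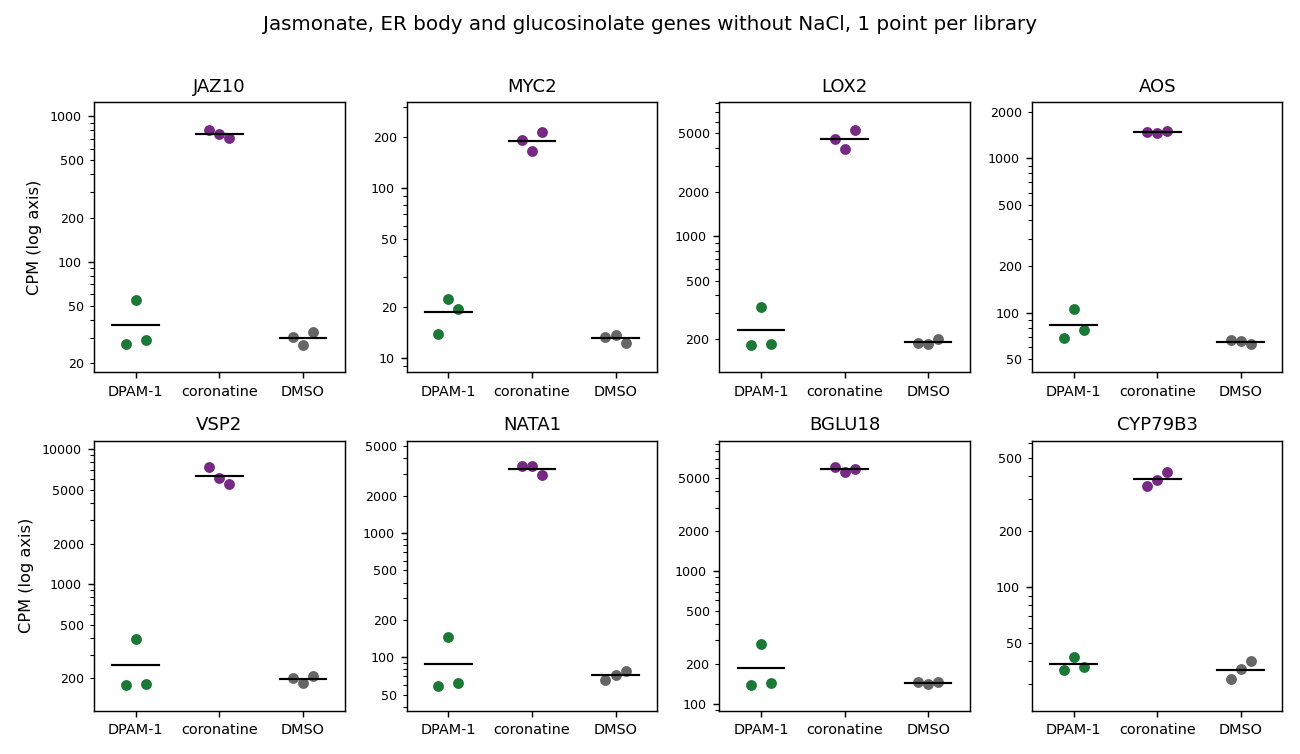
CPM on log axes for 8 genes in the DPAM-1, coronatine and DMSO libraries without NaCl; each point is 1 library and each bar the mean of 3. In every panel the 3 coronatine points lie above all DPAM-1 and DMSO points, and DPAM-1 library 2 is the middle and highest point of its group.

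Of 17 measured biosynthesis genes, 14 were lower, 1 was higher and 2 did not pass (median −1.96). LOX2, the plastid lipoxygenase that starts the pathway, had 184, 329.9 and 185 CPM after DPAM-1, against 4589, 3896 and 5283 CPM after coronatine and 189, 185 and 201 CPM in DMSO. No DPAM-1 value came near a coronatine value, and LOX2 fell by 4.30 ± 0.17 (adjusted p = 1.71e-15). AOS, allene oxide synthase, fell by 4.15, the allene oxide cyclase genes AOC1 to AOC4 by 1.24 to 3.83, and OPR3, which reduces the cyclopentenone intermediate, by 2.82. LOX3, LOX6 and OPCL1 fell by 2.04, 1.96 and 2.23. Among peroxisomal steps, ACX1 of beta-oxidation fell by 1.34. JAR1, which joins jasmonate to isoleucine, did not pass and its difference of −0.07 had an interval of −0.28 to 0.15. The desaturases that supply the fatty acid split, since plastidial FAD7 fell by 1.44 while FAD3 of the endoplasmic reticulum was 0.56 higher (adjusted p = 1.2e-05) and FAD8 did not pass (−0.16 to 0.39). Reads of near-identical copies such as AOC1, AOC2 and AOC3 cannot be assigned to 1 copy with certainty, which also holds for VSP1 and VSP2, MBP1 and MBP2, BGLU21 and BGLU22, GSTF6 and GSTF7, KIN1 and KIN2, IGMT1 and IGMT4, and the RBCS genes.

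All 8 measured catabolism genes were lower, by 2.80 to 4.02 (median −3.41). They include CYP94B1 and CYP94C1, which oxidise jasmonoyl-isoleucine, the amidohydrolases IAR3 and ILL6, the sulfotransferase ST2A, and the oxygenases AT5G05600, JRG21 and AT2G38240. IAR3, as an example, had 34.4, 39.5 and 35.2 CPM after DPAM-1, against 256, 304 and 257 CPM after coronatine. The IAR3 groups were well apart, with a log2 fold change of −2.90 ± 0.12 (adjusted p = 4.07e-15).

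The output genes gave the widest gap, with 12 of 12 lower and a median of −4.30. VSP2, a vegetative storage protein and classical marker of the MYC branch, had 180.2, 392 and 181 CPM in DPAM-1 seedlings, against 7385, 6138 and 5515 CPM in coronatine seedlings and 202, 187 and 207 CPM in DMSO. The highest DPAM-1 value, in library 2, was still far under the lowest coronatine value. VSP2 was 25.3-fold lower (−4.66 ± 0.23 log2, adjusted p = 3.9e-14). NATA1, which acetylates ornithine, had 58.9, 145 and 61.5 CPM after DPAM-1, against 3485, 3451 and 2939 CPM after coronatine, 37.2-fold lower and the largest difference of the list. Library 2 again held the highest value of its group. The arginase ARGAH2, the chlorophyllase CLH1, the lectin gene JR1, the myrosinase-binding genes MBP1 and MBP2, and the aminotransferase-like genes TAT3 and CORI3 fell by 4.1 to 4.74, VSP1 by 4.78, and NSP1, a nitrile specifier, by 2.74. KTI1, a trypsin inhibitor gene, changed least, with a fall of 0.69.

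The 10 strongest falls among well expressed genes whose groups did not overlap were AT1G73325, JAL23, CYP710A4, AT1G70720, NATA1, AT1G66100, AT4G02360, CYP705A12, BGLU18 and AT4G17470, between 4.93 and 5.49 on the log2 scale. AT1G73325, annotated as a Kunitz trypsin inhibitor, had 4.80, 8.33 and 5.18 CPM in DPAM-1 libraries, against 280.4, 362 and 187 CPM in coronatine libraries. It was 45.0-fold lower (adjusted p = 1.38e-14), the largest fall under that rule. AT1G66100 is annotated as a thionin, JAL23 as a jacalin-related lectin and CYP710A4 as a cytochrome P450 of the family that makes stigmasterol.

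Genes of the ER body and indole glucosinolate lists were also lower. ER bodies are compartments packed with beta-glucosidases that are released when tissue is crushed. All 9 measured genes were lower (median −1.93), against 17.5% of all genes. BGLU18 had 139, 279.7 and 143 CPM after DPAM-1, against 6084, 5542 and 5872 CPM after coronatine. It fell by 4.96 ± 0.19 (adjusted p = 1.08e-15), with no DPAM-1 value close to a coronatine value. PYK10, the main ER body glucosidase of roots, fell by 1.22, BGLU21 and BGLU22 by 2.66 and 3.28, and NAI1, the transcription factor for ER body formation, by 2.11.

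Indolic glucosinolates are tryptophan-derived defence compounds. All 13 measured genes of the list for that route were lower, by 0.97 to 3.42 (median −2.42), against 17.5% of all genes. So were 7 of 8 genes of tryptophan synthesis itself (median −2.34). The methyltransferase gene IGMT4, which the list does not hold, was higher and is described below. CYP79B3, which turns tryptophan into indole-3-acetaldoxime, had 35.9, 42.0 and 37.2 CPM after DPAM-1, against 354, 378 and 417 CPM after coronatine. The replicates were tight on either side, and the fall was 3.32 ± 0.10 (adjusted p = 3.25e-17). MYB34, a regulator of the route, fell by 2.57, the feedback-controlled anthranilate synthase gene ASA1 by 2.89 and the tryptophan synthase genes TSA1 and TSB1 by 2.61 and 2.02. PAI1 did not pass, at 0.23 (0.03 to 0.43), though it did without DPAM-1 library 2 (adjusted p = 0.0456).

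The aliphatic glucosinolates, made from methionine, had no common direction: 5 of 16 genes were higher, 6 lower and 5 did not pass (median −0.12). Of all genes 17.4% were called higher and 17.5% lower. IPMI2, an isopropylmalate isomerase subunit of chain elongation, had 195, 178 and 201 CPM after DPAM-1, against 75.3, 90.0 and 48.8 CPM after coronatine. The DPAM-1 values were uniformly above, by 1.42 ± 0.13 (adjusted p = 6.79e-09). CYP83A1 and the regulator MYB28 were higher by 0.75 and 0.59. FMOGS-OX1, which oxidises the side chain, and the sulfotransferase SOT17 fell by 1.76 and 1.02. This balance depends on the scaling, with 7 higher and 3 lower by library totals.

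Sulfur assimilation and glutathione synthesis supply both glucosinolate routes. Of 13 measured genes 12 were lower (median −1.84), against 17.5% of all genes. APK2, which makes the sulfate donor for glucosinolates, had 77.1, 97.8 and 77.0 CPM after DPAM-1, against 503, 581 and 459 CPM after coronatine, a fall of 2.61 ± 0.10 (adjusted p = 9.16e-16). All DPAM-1 values were under all coronatine values. The ATP sulfurylase genes APS1 and APS3 fell by 1.53 and 2.17, the glutathione synthesis genes GSH1 and GSH2 by 1.38 and 2.02, and the sulfur deficiency marker SDI1 by 3.39. APR1 and APR3 of sulfate reduction fell by 1.84 and 0.60. APR2, their relative, did not pass (0.23, 0.02 to 0.43), though it was higher without coronatine library 2 (adjusted p = 0.042).

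Phenylpropanoid, flavonoid and anthocyanin genes were lower in 17 of 22 cases, higher in 2, and did not pass in 3 (median −1.29). Of all genes 17.5% were called lower and 17.4% higher. The late anthocyanin steps fell most, with DFR at 2.05, LDOX at 1.99 and the glycosyltransferase gene UGT79B1 at 2.47, beside chalcone synthase CHS at 1.59. The regulators PAP1 and TT8 fell by 1.14 and 1.41. FLS1, flavonol synthase, went against the list: it had 112, 120.1 and 122 CPM after DPAM-1, against 43.6, 40.9 and 43.9 CPM after coronatine. The DPAM-1 values were all well above, by 1.46 ± 0.10 (adjusted p = 4.38e-11), and the flavonol regulator MYB12 was 0.68 higher. PAL1 of the general pathway fell by 1.55, and its relative PAL2 did not pass (−0.25 to 0.13).

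**Figure D2:**
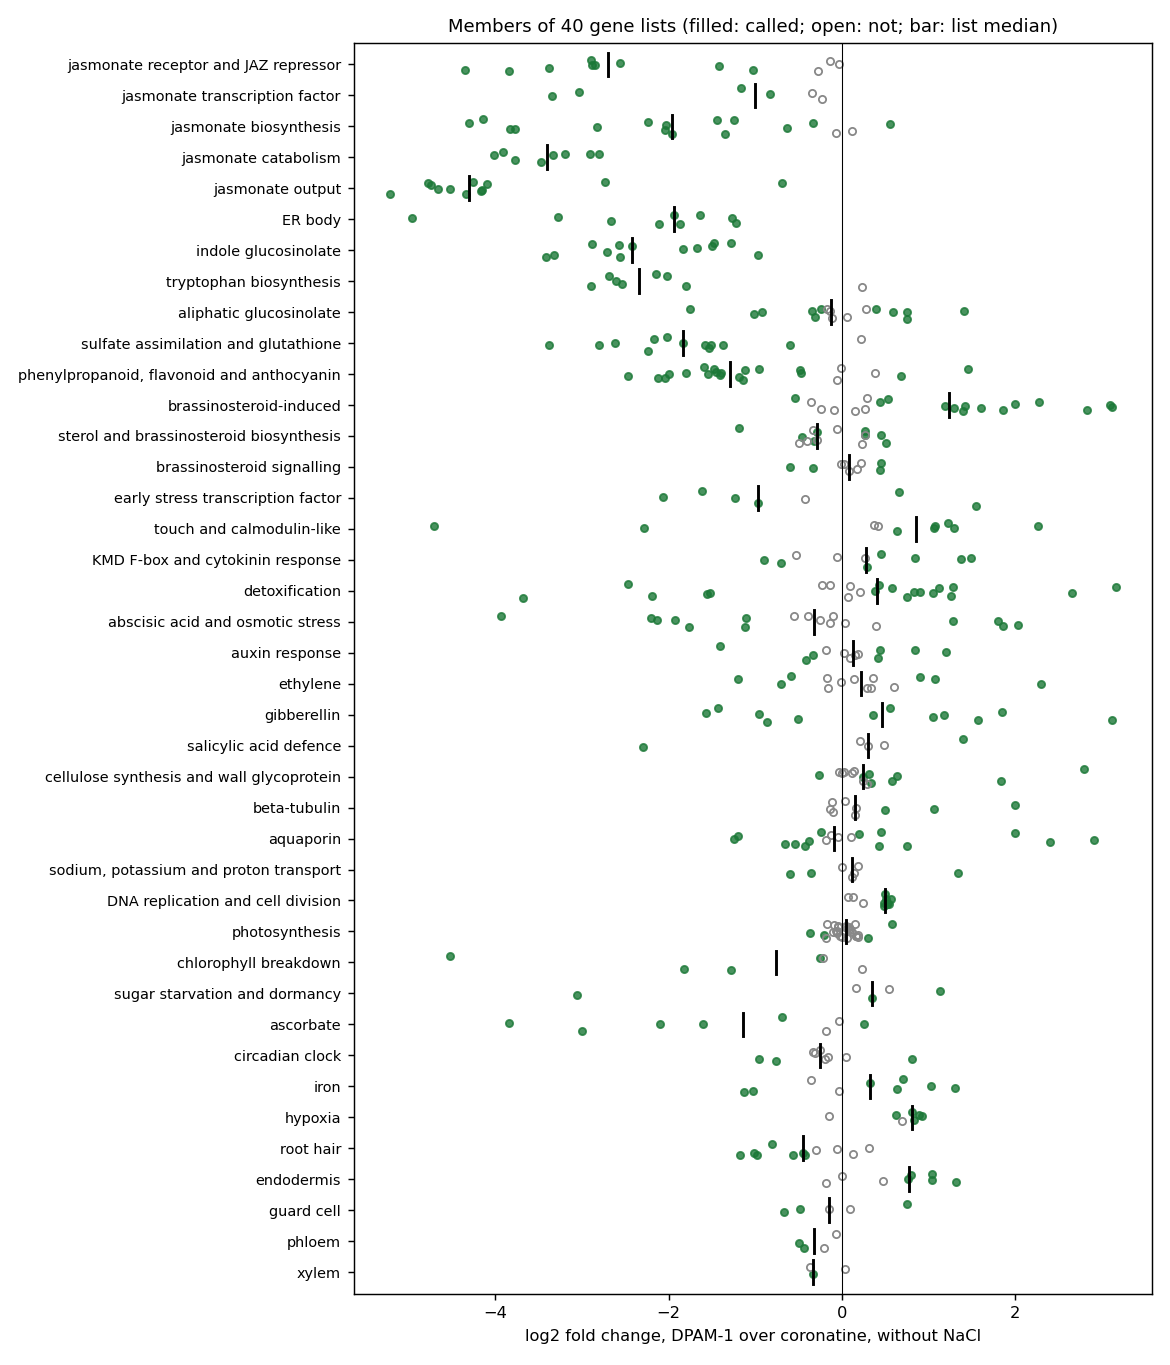
Log2 fold change of DPAM-1 over coronatine without NaCl for each measured member of 40 gene lists; filled points passed the adjusted p of 0.05, open points did not, and the bar is the list median. The jasmonate, ER body, indole glucosinolate, tryptophan and sulfur lists have medians of −1.0 to −4.30, with 4 members right of 0, the brassinosteroid-induced list lies mostly right of 0, and photosynthesis genes gather at 0.

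Brassinosteroid-induced genes were mostly higher after DPAM-1. Of 20 measured brassinosteroid-induced genes, 13 were higher, 1 was lower and 6 did not pass (median 1.24); 17.4% of all genes were called higher. XTH4, which cuts and rejoins xyloglucan in the wall, had 482, 441 and 472 CPM in DPAM-1 libraries, against 58.1, 74.7 and 63.6 CPM in coronatine libraries and 449, 465 and 413 CPM in DMSO libraries. DPAM-1 and DMSO values interleaved, and both lay far above the coronatine values. XTH4 was 7.11-fold higher after DPAM-1 than after coronatine (2.83 ± 0.08 log2, adjusted p = 1.86e-17). Its relatives XTH17, XTH18 and XTH19 were higher by 3.1, 1.42 and 2.28, the expansin EXPA11 by 1.61, and the bHLH genes BEE1 and BEE2 by 1.40 and 1.19. XTH24 was the member that fell, by 0.54, a call lost without coronatine library 1 or DPAM-1 library 1 or 3 (adjusted p of 0.0823 to 0.0988) and by DESeq2 (adjusted p = 0.0822). Set beside this, 4 of the 20 were higher and 3 lower in DPAM-1 against DMSO (0.801% and 0.218% of all genes), and 1 was higher and 14 lower in coronatine against DMSO (17.4% of all genes in either direction), in comparisons that share these libraries. EXPA1, EXPA3 and IAA19, other familiar brassinosteroid targets, did not pass, at −0.24 (−0.45 to −0.03), −0.09 (−0.29 to 0.11) and 0.16 (−0.26 to 0.58); without coronatine library 1, EXPA1 passed as lower (adjusted p = 0.0403).

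In the sterol and brassinosteroid biosynthesis list 4 of 15 genes were higher and 4 lower, against 17.4% and 17.5% of all genes. By library totals 6 were higher and 2 lower, and without coronatine library 1 the count was 2 higher and 4 lower. CPD, a biosynthesis gene under feedback control, had 26.0, 25.6 and 26.7 CPM after DPAM-1, against 16.6, 21.1 and 19.6 CPM after coronatine. It was higher by 0.46 ± 0.11 (adjusted p = 0.0015), and the groups did not overlap. DET2, the steroid reductase, fell by 1.19, while DWF4 did not pass at −0.41 (−0.74 to −0.08), with an adjusted p of 0.0523 in all libraries and 0.0348 without DPAM-1 library 2. In the signalling list 2 of 9 genes were higher and 2 lower, close to the 17.4% and 17.5% of all genes. By library totals 4 were higher and 0 lower, and without DPAM-1 library 3 the count was 2 and 0; without any 1 of DPAM-1 libraries 1 and 2 or coronatine libraries 1 and 3 it was 2 and 1. The transcription factor BES1 was 0.44 higher; the receptor BRI1 (−0.31 to 0.35), the kinase BIN2 (−0.10 to 0.27) and BZR1 (−0.27 to 0.24) did not pass.

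The tonoplast aquaporin genes TIP2-1, TIP2-2 and TIP2-3 were the only 3 of the aquaporin family called higher by at least 1 on the log2 scale. TIP1-1 and TIP1-2 were not among them. In that family 7 of 18 genes were higher and 7 lower, against 17.4% and 17.5% of all genes. TIP2-2 had 182, 159.6 and 185 CPM after DPAM-1, against 26.0, 23.5 and 20.1 CPM after coronatine and 124, 116 and 114 CPM in DMSO. Its DPAM-1 values topped all 6 others, and it was 7.51-fold higher than after coronatine (2.91 ± 0.12, adjusted p = 1.39e-15). TIP2-1 and TIP2-3 rose by 2.01 and 2.41. Plasma membrane aquaporins of the PIP class split, from PIP2-3 and PIP2-4, which fell by 1.24 and 1.2, to PIP1-3, which was 0.75 higher.

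In the gibberellin list, all 12 measured genes changed, 7 higher and 5 lower, against 17.4% and 17.5% of all genes. The GASA peptide genes GASA1, GASA4, GASA6 and GASA14 were higher by 1.06 to 3.12, with the biosynthesis gene GA3OX1 at 1.18 and the DELLA repressor gene GAI at 0.56. GASA6 had 23.1, 14.7 and 21.4 CPM after DPAM-1, against 1.93, 2.15 and 2.92 CPM after coronatine. The highest GASA6 value after coronatine was under the lowest after DPAM-1. Against DMSO, GASA6 stood at −0.78 after DPAM-1 and −3.90 after coronatine. The receptor genes GID1A and GID1B fell by 1.57 and 0.95, as did the DELLA gene RGL1 by 1.43.

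Cellulose synthesis and wall glycoprotein genes were higher in 7 of 15 cases and lower in 1, against 17.4% and 17.5% of all genes. By library totals 11 were higher. The lower gene, FLA1, fell by 0.26, a call lost without coronatine library 1 or 2 or DPAM-1 library 2 or 3 (adjusted p of 0.116 to 0.227). FLA13, a fasciclin-like arabinogalactan protein, had 305, 276 and 318 CPM after DPAM-1, against 37.1, 51.0 and 41.5 CPM after coronatine. FLA13 values after coronatine were the low ones in all 3 libraries, and the difference was 2.80 ± 0.15 (adjusted p = 2.52e-13). FLA9 was 1.84 higher and CESA5 0.58, while CESA1 did not pass (−0.28 to 0.22). Of 9 beta-tubulin genes, TUB1, TUB5 and TUB6 were higher by 2.00, 1.06 and 0.50 and the other 6 did not pass (17.4% of all genes were higher). The number higher was 5 with upper-quartile factors or without coronatine library 3, and 6 by library totals. DNA replication and cell division genes were higher in 8 of 11 cases (17.4% of all genes), by 0.48 to 0.57. Among them were the helicase subunit MCM7 by 0.53 and the cyclin CYCD3-1 by 0.52. Cyclin CYCB1-1 did not pass (−0.30 to 0.45). Against DMSO, in comparisons that share these libraries, DPAM-1 had 0 wall genes, 1 lower tubulin gene and 0 replication genes called (1.02% of all genes). After coronatine 10 of 15, 6 of 9 and 7 of 11 were lower than in DMSO and 0 higher (17.4% of all genes in either direction).

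**Figure D3:**
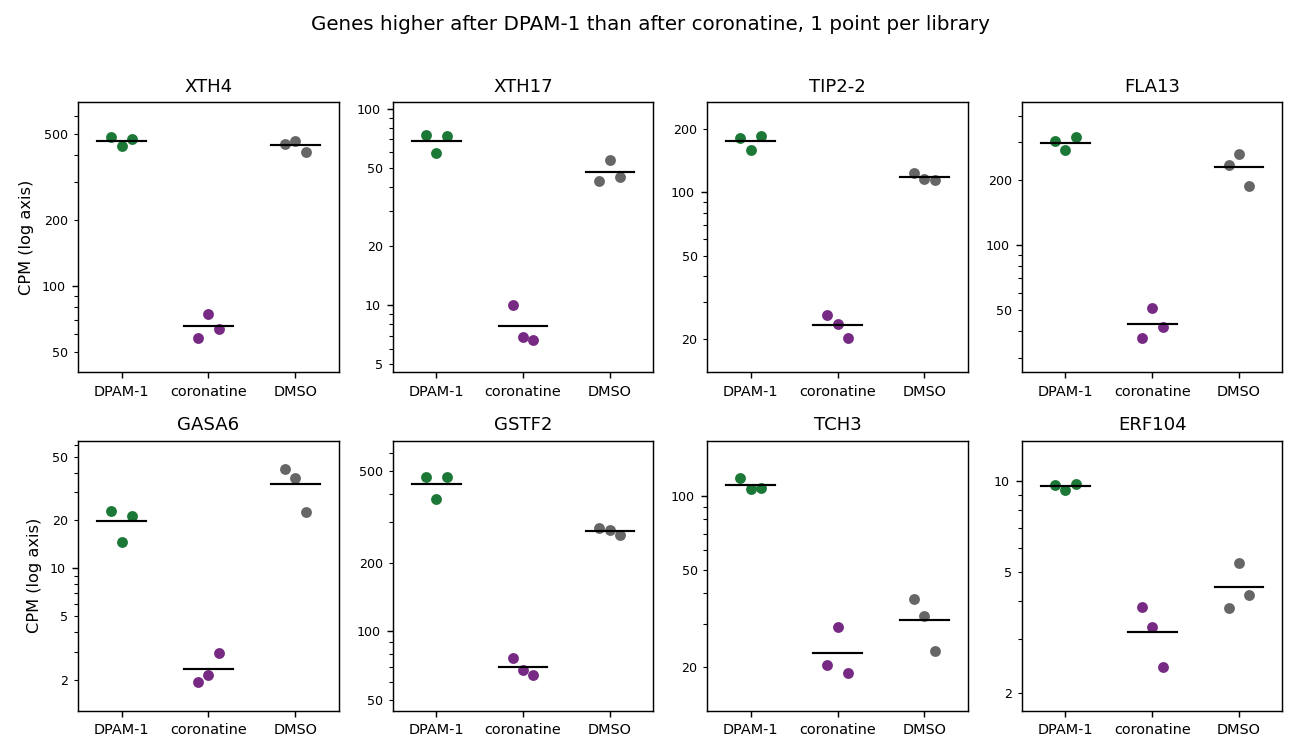
CPM on log axes for 8 genes that were higher after DPAM-1 than after coronatine; each point is 1 library and each bar the mean of 3. XTH4 overlaps DMSO after DPAM-1, whereas TCH3 and ERF104 lie above both coronatine and DMSO in all 3 DPAM-1 libraries.

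The 10 strongest rises under the same rule were AT5G42530, AT5G46890, ORS1, IGMT4, OSM34, AT5G64100, AT5G02760, AT4G16260, AZI1 and GSTF7, between 3.17 and 4.17. AT5G42530, annotated as an uncharacterized protein, had 858, 697 and 1156 CPM after DPAM-1, against 37.1, 69.3 and 44.5 CPM after coronatine and 422, 405 and 364 CPM in DMSO. Its DPAM-1 values were the highest of the 9 libraries and its coronatine values the lowest, 18-fold apart (adjusted p = 1.51e-14). ORS1, a small protein that promotes organ size, was 3.54 higher and OSM34, osmotin, 3.32. AZI1, a lipid transfer-like protein of systemic immunity, had 1057, 963 and 1228 CPM after DPAM-1, against 98.4, 156 and 91.7 CPM after coronatine, and IGMT4, a methyltransferase gene next in name to IGMT1 of the indole glucosinolate list, moved opposite to it (3.5 against −2.71).

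Touch and calmodulin-like genes were higher in 6 of 10 cases and lower in 2, against 17.4% and 17.5% of all genes. TCH3, a calmodulin-like protein gene induced by touch, had 117, 107 and 108 CPM in DPAM-1 seedlings, against 20.4, 29.3 and 19.0 CPM in coronatine seedlings and 38.1, 32.4 and 23.3 CPM in DMSO seedlings. All 3 DPAM-1 values were above the other 6, and TCH3 was 4.81-fold higher than after coronatine (2.27 ± 0.19, adjusted p = 9.12e-10). XTH22, known as TCH4, was 1.29 higher, CML9 1.23, CML42 1.08 and CML11 1.07. CML38 and CML39 went the other way and fell by 2.28 and 4.71.

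A rule asked for genes that DPAM-1 shifted away from DMSO while coronatine did not (unadjusted p over 0.05), and that differed between the compounds; 6 higher and 6 lower genes were taken. The higher ones were XTH23, AT4G27280, ERF104, AT1G07135, AT3G13310 and AT1G19380, between 1.36 and 1.87 above coronatine. AT3G13310, annotated as a DnaJ-domain chaperone, had 62.8, 60.5 and 66.7 CPM after DPAM-1, against 23.9, 29.3 and 20.6 CPM after coronatine and 20.7, 21.4 and 22.1 CPM in DMSO. The coronatine values bracketed the DMSO values and the DPAM-1 values were apart from both. The ethylene response factor ERF104 had 9.67, 9.32 and 9.71 CPM after DPAM-1, against 3.82, 3.29 and 2.43 CPM after coronatine, and AT4G27280, an EF-hand calcium-binding protein, was 1.58 higher. The lower ones were AT5G04960, COL9, AT4G08410, NSN1, SRF3 and GNL1, which fell by 0.48 to 0.88, and the GNL1 call was lost without coronatine library 3 or DPAM-1 library 3 (adjusted p = 0.135 and 0.162); because the DMSO comparisons choose these genes and share libraries with the one tested, their number carries no weight.

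Where the compounds shifted the same genes the same way from DMSO, the direct comparison could separate their sizes. KMD3, an F-box protein gene whose family targets cytokinin response regulators, had 17.2, 16.2 and 14.9 CPM after DPAM-1, 17.3, 15.8 and 16.8 CPM after coronatine and 4.36, 3.17 and 3.49 CPM in DMSO. The compound groups interleaved and both were above DMSO. The difference between the compounds was −0.05 with a 95% interval of −0.31 to 0.21. The legume lectin-like gene AT3G15356 had 79.3, 45.2 and 88.2 CPM after DPAM-1, 66.9, 104 and 59.0 CPM after coronatine and 21.8, 21.1 and 25.7 CPM in DMSO, with overlapping compound groups and a wider interval of −0.52 to 0.29 around −0.11. ZAT10, a zinc finger repressor of abiotic stress, was above DMSO in both but lower after DPAM-1, at 14.8, 16.1 and 12.3 CPM, against 36.8, 32.4 and 31.4 CPM after coronatine, a fall of 1.23 ± 0.14 (adjusted p = 1.44e-07).

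Early stress transcription factors did not move as 1 group: 4 of 7 were lower and 2 higher, against 17.5% and 17.4% of all genes. WRKY40 fell by 2.06, WRKY18 by 1.61 and ZAT12 by 0.97. WRKY33, the regulator of camalexin synthesis, was higher, at 15, 15.8 and 14.4 CPM after DPAM-1, against 9.36, 8.58 and 10.8 CPM after coronatine and 5.78, 5.94 and 7.74 CPM in DMSO. The 3 groups did not overlap, and the difference between the compounds was 0.66 ± 0.18 (adjusted p = 0.00694). ZAT6 did not pass (−0.88 to 0.04).

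Detoxification genes were higher in 12 of 22 cases and lower in 5, against 17.4% and 17.5% of all genes. Among phi-class glutathione transferases, which conjugate glutathione to foreign or oxidised molecules, GSTF2 was 2.66 higher and GSTF8 0.75 higher. GSTF6 and GSTF7, which are near-identical neighbours, went opposite ways: GSTF7 had 73.7, 57.3 and 88.5 CPM after DPAM-1, against 7.65, 8.83 and 7.99 CPM after coronatine, while GSTF6 had 641, 681 and 794 CPM after DPAM-1, against 2099, 2102 and 1859.5 CPM after coronatine. Neither pair of groups overlapped, with differences of 3.17 ± 0.14 and −1.52 ± 0.09. In DMSO, GSTF7 had 41.2, 37 and 34.7 CPM and GSTF6 444, 399.6 and 394 CPM. Of the tau class, GSTU24 and GSTU17 were higher by 1.26 and 1.06, and GSTU4, GSTU5 and GSTU16 fell by 2.47, 2.19 and 1.56. The oxophytodienoate reductase relatives OPR1 and OPR2 were higher by 1.12 and 1.28, and the cytochrome P450 gene CYP81D11 fell by 3.68.

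**Figure D4:**
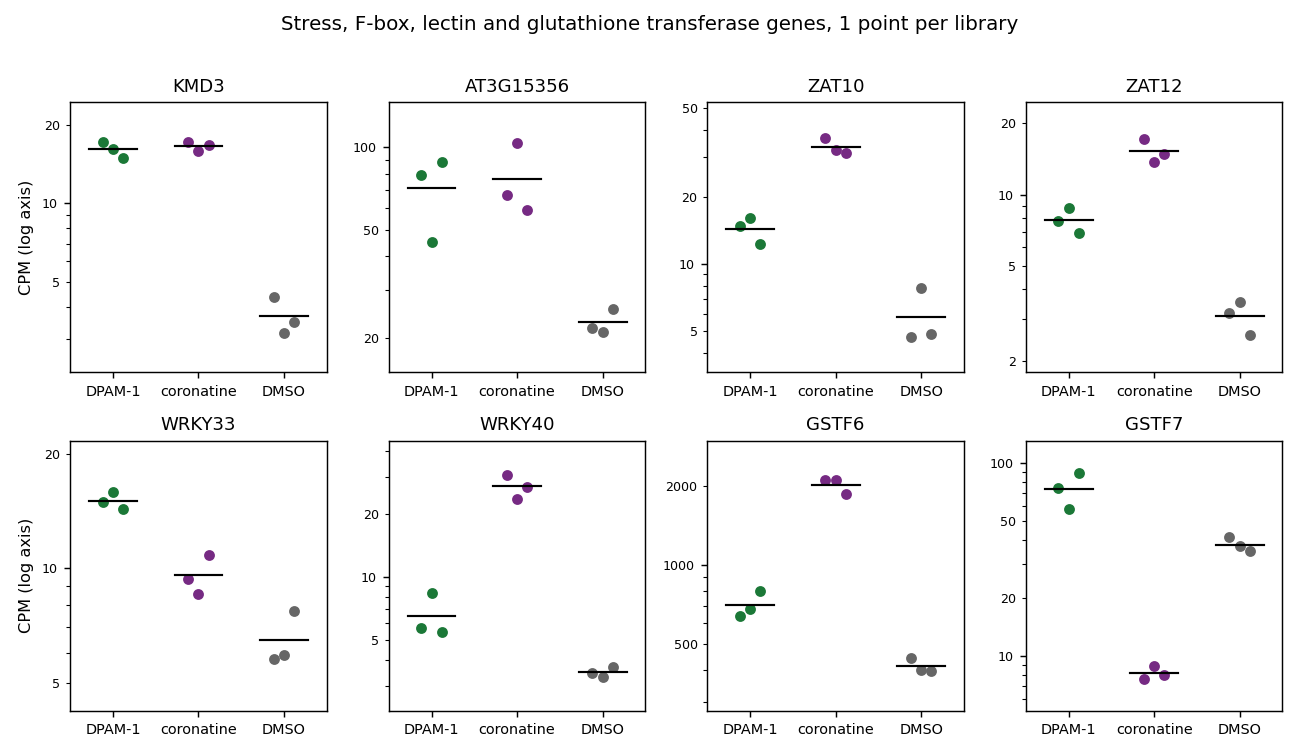
CPM on log axes for 8 stress, F-box, lectin and glutathione transferase genes; each point is 1 library and each bar the mean of 3. KMD3 and AT3G15356 overlap between the compounds, ZAT10, ZAT12, WRKY40 and GSTF6 are lower after DPAM-1 than after coronatine, and WRKY33 and GSTF7 are higher.

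Cytokinin, auxin, ethylene and abscisic acid genes were mixed. Of all genes 17.4% were called higher and 17.5% lower. Of 10 cytokinin genes 5 were higher and 2 lower. The type-A response regulators, which are induced by cytokinin and limit its signal, were higher, with ARR7 at 1.49, ARR5 at 1.37 and ARR16 at 0.85, while the receptor AHK4 and KMD2 fell by 0.90 and 0.70. Among auxin genes 4 of 12 were higher, led by IAA7 at 1.21, and 3 lower, led by GH3.3, which fell by 1.41; without DPAM-1 library 2 or without library 3 the count was 2 higher and 3 lower. Of 14 ethylene genes 3 were higher, 3 lower and 8 did not pass, near the shares of all genes. The ACC oxidase gene ACO1 (AT2G19590) and the synthase gene ACS6 were higher by 2.30 and 0.91. EBF1, EIN3 and ERS1 fell by 1.2, 0.70 and 0.59. In the abscisic acid and osmotic stress list 4 of 18 were higher, near the share of all genes, and 7 lower. COR47, a dehydrin, had 185, 189 and 210.0 CPM after DPAM-1, against 52.9, 56.4 and 50.9 CPM after coronatine; the groups were wide apart, and it was 1.86 higher, as were ERD10 (1.81), RD22 (2.04) and RD29A (1.28). GOLS1, galactinol synthase, fell by 3.94, RD26 by 2.13, KIN1 and KIN2 by 1.76 and 1.93, and the phosphatase gene ABI1 by 1.12.

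Ascorbate genes were lower in 5 of 8 cases, against 17.5% of all genes. DHAR1, dehydroascorbate reductase, was at 394, 477 and 423 CPM after DPAM-1, against 3825, 3606 and 2947 CPM after coronatine. That is a fall of 3.0 ± 0.10 with no overlap (adjusted p = 8.93e-17). MDAR3 fell by 3.84 and the synthesis genes VTC1 and VTC5 by 1.6 and 2.1. Iron storage ferritins FER1, FER3 and FER4 were higher by 1.31, 0.64 and 0.71, and the vacuolar metal exporters NRAMP3 and NRAMP4 fell by 1.02 and 1.13. Hypoxia genes were higher in 5 of 7 cases (17.4% of all genes), among them ADH1 (0.92) and the haemoglobin gene HB1 (0.90). Against DMSO 0 of the 7 were called after DPAM-1 (1.02% of all genes). After coronatine 4 were lower than in DMSO (17.4% of all genes). Of the chlorophyll breakdown genes, CLH1, PPH and PAO fell by 4.53, 1.82 and 1.28. In the salicylic acid list EDS1 was 1.40 higher, the transporter EDS5 fell by 2.29 and 3 genes did not pass. That is 1 of 5 each way, near the 17.4% and 17.5% of all genes.

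Of 28 photosynthesis genes 24 did not pass, and the list median was 0.05. RBCS1A, a small subunit of Rubisco, had 26407, 23413 and 25152 CPM after DPAM-1, against 27078, 25250.0 and 24697 CPM after coronatine, with an interval of −0.21 to 0.13. By library totals alone 18 of these genes were called higher and 1 lower, so the number of calls in this list depends on the scaling. RBCS1B and RBCS2B were higher by 0.58 and 0.31, and LHCB1.3, a light-harvesting protein gene, fell by 0.37. Of 9 clock genes 2 were lower and 1 higher, near the 17.5% and 17.4% of all genes; PRR5 fell by 0.95, ELF4 was 0.81 higher, and CCA1 did not pass (−0.77 to 0.15). Of 5 genes of sugar starvation and dormancy, 2 were higher, 1 was lower and 2 did not pass. The 1 lower gene is near the 17.5% of all genes, and 17.4% of all genes were higher. The asparagine synthetase gene ASN1 fell by 3.05 and the xylosidase gene BXL1 was 1.14 higher. Of 7 sodium, potassium and proton transport genes, the proton pump gene AHA2 was 1.34 higher, and SOS1, the sodium exporter, fell by 0.59. The SOS1 call was lost without coronatine library 1 or DPAM-1 library 3 (adjusted p = 0.0556 and 0.111). Of the 7, 1 was higher and 2 lower, near the 17.4% and 17.5% of all genes; the count was 2 and 0 by library totals, 2 and 1 without coronatine library 3, and 1 and 1 without coronatine library 1 or DPAM-1 library 3. The vacuolar exchanger gene NHX1 did not pass (−0.20 to 0.20).

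The comparison was made again in the libraries with NaCl, which are other libraries. There 6026 genes (42.4%) differed between DPAM-1 and coronatine, 2978 higher and 3048 lower. Of the 4961 genes called without NaCl, 3775 were called with NaCl in the same direction, which is 76.1% of the first list and 62.6% of the second; 33 were called in the opposite direction and 1153 were not called. VSP2 fell by 5.27 with NaCl and 4.66 without, JAZ10 by 4.55 and 4.35, and XTH4 was higher by 2.56 with NaCl and 2.83 without. With NaCl all 12 jasmonate output genes and all 13 genes of the indole glucosinolate list were lower after DPAM-1 (21.4% of all genes). Their medians were −4.72 and −2.11. The brassinosteroid-induced list had 13 genes higher (20.9% of all genes) and 3 lower there, and its median was 0.71 with NaCl and 1.24 without.

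**Figure D5:**
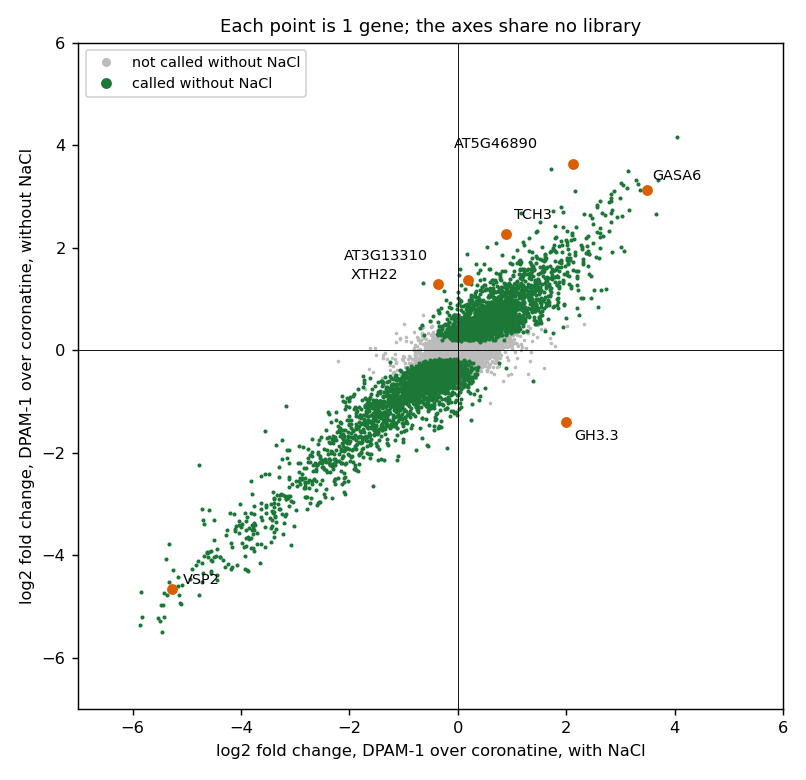
Log2 fold change of DPAM-1 over coronatine with NaCl (x axis) and without NaCl (y axis) for 14229 genes, each point 1 gene, with 7 named genes in orange. Most called genes lie in the lower left and upper right corners, and GH3.3 lies in the lower right at 2.00 and −1.41.

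The difference between the compounds itself changed with NaCl in 575 genes (4.04%), by the test of the interaction in edgeR. DESeq2 called 818, and without coronatine library 1 with NaCl 333 were called by edgeR. GH3.3, which joins auxin to amino acids, had the opposite sign in the 2 settings, higher by 2.00 after DPAM-1 with NaCl and lower without, where it had 4.80, 5.72 and 4.15 CPM after DPAM-1, against 12.5, 12.2 and 14.3 CPM after coronatine (interaction adjusted p = 7.11e-08). The differences in TCH3, XTH22, XTH23 and AT3G13310 were smaller with NaCl or of the other sign, at 0.89, −0.37, 0.16 and 0.19, with interaction adjusted p of 0.0035, 0.0154, 0.0209 and 0.00057. XTH23 and AT3G13310 were named for their difference without NaCl, so a smaller one with NaCl is favoured by that choice. KMD3, level between the compounds without NaCl, stood at −0.73 with NaCl (interaction adjusted p = 0.026).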

How the data were processed

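RNA of whole seedlings was sequenced with Lasy-Seq v1.1, a pooled library method, per the labels' protocols. The authors deposited raw counts per gene for 18 libraries, in which every gene has at least 30 reads in each library, so genes below that are not analysed here. Per the submitters' processing notes, bcl2fastq, Trimmomatic, HISAT2, featureCounts and DESeq2 were used with the build TAIR10; versions, roles and strand use in counting are not given in the sources used here. A second deposited table of the same libraries was not used.

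All 18 libraries entered 1 fit in edgeR 4.0.16 (R 4.3.3, limma 3.58.1) with TMM factors of 0.847 to 1.13 and 1 mean per group; the low-count filter removed 0 genes, and the common biological coefficient of variation was 10.4%. DPAM-1 minus coronatine was tested with the quasi-likelihood test and Benjamini-Hochberg adjustment over 14229 genes, with a threshold of 0.05. CPM values are TMM-scaled, standard errors are the log2 fold change over the square root of the F statistic, 95% intervals use them, and no molecular identifiers are stated, so depth covers counting error only. The procedure was also run on simulated counts in which few genes changed, which does not cover data where as many genes differ as here.

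Genes were named by these rules: the 10 highest and 10 lowest fold changes among called genes of mean log2 CPM of at least 2 whose groups did not overlap; from each list, by p, up to 4 called genes in the direction with more calls and 1 in the opposite; 17 marker genes whatever their p; up to 6 higher and 6 lower genes called against coronatine and DMSO but with an unadjusted p over 0.05 in coronatine against DMSO; and up to 6 called against DMSO in the same direction by both compounds. Other list members were named for their role after their values were seen. Members and lists were chosen with earlier results of these data known. Gene names come from the TAIR10.1 annotation and no coordinates were used. Alternatives were DESeq2 1.42.0, other scaling factors, filters, a replicate block and leaving out each library.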

Additional observations from a re-analysis of the deposited data

Results flagged for a closer look

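The difference between DPAM-1 and coronatine was tested for a change with NaCl, as the DPAM-1 minus coronatine log2 difference with NaCl minus that without; the values below are these changes, and the cause was not tested. It passed in 575 genes. The widest among the genes described above was in GH3.3, at 3.41, with ORS1 at −1.82, XTH23 at −1.71, XTH22 at −1.67, AT4G27280 at −1.54, AT5G46890 at −1.52 and AT1G07135 at −1.44. Genes named for an extreme difference without NaCl, such as ORS1, AT5G46890, XTH23, AT4G27280 and AT1G07135, enter this change with that same value subtracted. Their selection favours a smaller difference with NaCl, by an amount that was not estimated. The DPAM-1 minus coronatine value was higher under NaCl in BEE2 at 1.53, GA3OX1 at 1.47, EXPA1 at 0.75, EXPA3 at 0.48, GID1A at 0.58, BES1 at 0.46, PRR5 at 0.72, NRAMP4 at 0.64 and CYP83A1 at 0.61.

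It was lower under NaCl in TCH3 at −1.37, CML39 at −1.12, CML38 at −1.02, AT3G13310 at −1.17, IAA19 at −1.30, XTH24 at −1.07, GASA1 at −1.04, FLA13 at −0.89 and KMD3 at −0.68. The same held for SDI1 at −1.29, EDS1 at −0.92, OPR1 at −0.80, ERD10 at −0.78, PPH at −0.75, PAO at −0.72, HB1 at −0.72, DET2 at −0.67, GSTU5 at −0.58 and VTC1 at −0.56.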

How the results depend on the processing

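DESeq2 called 5096 genes between DPAM-1 and coronatine without NaCl, against 4961 by edgeR, and 818 for the change of the difference with NaCl, against 575. A required log2 difference of at least 1 left 1339 genes (499 higher, 840 lower) without NaCl, 1589 (643 higher, 946 lower) with NaCl and 149 (59 higher, 90 lower) for the change of the difference. By library totals, 5066 genes were higher and 1541 lower without NaCl, 6966 and 1522 with NaCl, and 460 were higher for the change; upper-quartile factors gave 63.0% of 5331 calls as higher, with a median of all genes of 0.08. Leaving out each library gave 4306 to 4763 calls without NaCl, 5170 to 5427 with NaCl and 333 to 754 for the change; its highest count (314 higher, 440 lower) was without coronatine library 2 and its lowest (152 higher, 181 lower) without coronatine-with-NaCl library 1, and without DPAM-1-with-NaCl library 3 it had 216 lower. Only the groups compared gave 4497, 6802 and 775 calls.

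Same-numbered DPAM-1 and coronatine libraries did not deviate together (r of −0.01, −0.12 and −0.11 across genes). With 3 libraries a group this cannot settle whether the numbers pair libraries, which no label says. Coronatine library 3 and DMSO library 3 were both the lowest of their groups on principal components 2 and 3, and DPAM-1 library 3 was not. A replicate block gave 4941, 6001 and 603 calls. Of 4668 single-gene values over these settings, 4503 kept their status as called or not, and their direction if called. The call was lost in 152 and gained in 12, and 1 changed direction with a call: RBCS1A was higher by library totals, at 0.16. Changes of direction without a call in either fit were counted among the 4503. Of the 260 genes tried in this way that passed, 239 kept the call and its direction in every setting but the required difference. By list, aliphatic glucosinolate genes were 7 higher and 3 lower by library totals and 6 and 5 without coronatine library 2, aquaporin genes 8 and 6 by library totals, and auxin genes 2 and 3 without DPAM-1 library 2 or 3. Genes near 30 reads per library have the least precise values.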
